A study of Homo sapiens with 2 samples.

Results

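The cells described here were non-cycling arterial endothelial cells (ECs) of blood-generating heart-forming organoids (BG-HFOs). They were chosen by the unique molecular identifiers (UMIs, 1 per captured transcript) counted for 11 genes in each barcode. A member had 500 to 9000 detected genes and under 15% mitochondrial UMIs. It had at least 2 UMIs of *CDH5* (VE-cadherin), at least 2 of *PECAM1*, and at least 3 of *CXCR4*, *DLL4* and *SOX17* summed. It had none of *NR2F2*, *RUNX1* or *PTPRC*, and no more than 2 UMIs of *MYH6* or of *MKI67* and *TOP2A* summed. This gate took 988 of 16866 barcodes in organoid 32.7 and 864 of 19948 in organoid 33.10, or 1852 of 36814 in all. Of the barcodes that passed the limits on genes and mitochondrial UMIs, the members were 6.32% in organoid 32.7 (95% exact binomial interval 5.94 to 6.71) and 4.52% in organoid 33.10 (4.23 to 4.82), a mean of 5.42% ± 1.27 (SD, n = 2 organoids). These intervals and all others given here cover counting error only.

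Single-cell RNA sequencing was done on 2 BG-HFOs, spheroid cultures grown from the human embryonic stem cell line hES3 that carries eGFP at *NKX2.5*, on day 14. Each organoid was dissociated on its own and gave 1 library (10x Genomics 3' chemistry), and both followed the same protocol, so the series holds no control or treated group. The libraries held cardiac, endothelial, mesenchymal and haematopoietic cells, and the comparisons made here are between cell classes within the same organoids. A p-value therefore rests on the spread between 2 organoids of 1 line, pooled over the classes of a fit and moderated across genes. It leaves out the pairing of classes by organoid, except where the organoid is named as a block.

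In addition, 4 gates of comparison cells were set on the same 11 genes. Venous ECs had the same *CDH5* and *PECAM1* minimum, at least 3 UMIs of *NR2F2* and none of the arterial 3 (97 and 78 cells in organoids 32.7 and 33.10, the order used for every pair of values below). Cycling arterial ECs met the arterial rule but had at least 3 UMIs of *MKI67* and *TOP2A* (34 and 20 cells). *RUNX1*-positive arterial ECs met it but had at least 2 UMIs of *RUNX1* (32 and 60 cells). Cardiomyocytes, with at least 10 UMIs of *MYH6* and none of *CDH5* or *PECAM1* (900 and 1065 cells), served as cells that should lack endothelial transcripts. In each organoid the UMIs of a class were added up, and the sums were tested with edgeR's quasi-likelihood test and Benjamini-Hochberg adjustment over all genes tested (threshold 0.05), without the 11 gate genes. Levels are counts per 1000000 UMIs of the sum (CPM), and log2 fold changes are given with their standard error. The comparisons all use the same arterial sums, so they are not independent of each other. Where values are said not to overlap, each class has 2 of them. The share of genes without overlap over all genes tested was not counted.

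The libraries held 191152562 and 233818881 UMIs, of which the members held 16092454 and 12656335. A member had a median of 14915 UMIs in organoid 32.7 and 13477.5 in organoid 33.10, against 7842 and 8284.5 over all barcodes. Venous ECs were close in depth (13403 and 13026), whereas cycling (24884.5 and 21370) and *RUNX1*-positive arterial ECs (28182 and 21381) were deeper. The median share of mitochondrial UMIs was 4.02% and 4.17% in members but 2.80% and 2.60% in venous ECs. It was 3.00% and 3.53% in cycling and 4.07% and 4.14% in *RUNX1*-positive arterial ECs. Doublets were not removed, and the barcodes with the highest Scrublet doublet scores, as many as the loading predicts, were marked in their place. They made up 5.06% and 6.13% of the members, 9.28% and 8.97% of the venous ECs, and 62.5% and 83.3% of the *RUNX1*-positive arterial ECs. The libraries had 100 barcode sequences in common, and 0 of them were in both arterial gates.

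Arterial identity in ECs is set up when VEGF signals through KDR and NRP1 and raises Notch ligands such as DLL4. Notch receptors on the neighbouring cell then release their intracellular part, which binds RBPJ and switches on the repressors of the HEY and HES families, and these oppose the venous factor NR2F2. In sprouting vessels a leading tip cell, rich in ESM1, ANGPT2, PDGFB and APLN, guides the stalk, and tip cells are known to contribute to arteries. In the early embryo arterial endothelium is also the site from which RUNX1-expressing haemogenic cells arise.

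The gate genes themselves describe the choice and were not tested. The step that removed most endothelial barcodes was the arterial sum, which left 1626 of 2182 and 1389 of 1959 barcodes. Requiring no *NR2F2* left 1304 and 1140, and requiring no *RUNX1* left 1113 and 940. The last step, on *MKI67* and *TOP2A*, took 34 and 20 barcodes. In the members *CDH5* was at 345 and 304 CPM, *PECAM1* at 517 and 549, *CXCR4* at 371 and 360, *DLL4* at 182 and 160 and *SOX17* at 240 and 200. All of *CXCR4* (the CXCL12 receptor), *DLL4* (a Notch ligand) and *SOX17* (an arterial transcription factor) had a UMI in 73.4% and 64.7% of members, so most did not enter through a single gene. At the edge of the rule, 56 and 74 members had an arterial sum of exactly 3, and their *ESM1* was at 1077 and 1629 CPM. The 65 and 55 barcodes just outside, with a sum of 2, had *ESM1* at 926 and 1145 CPM and *EFNB2* at 361 and 350 CPM, against 392 and 433 CPM just inside. For *ESM1* and *EFNB2*, levels just outside this edge were lower than those just inside in both organoids. *GJA5* was at 25.7 and 53.8 CPM inside and 35.5 and 10.8 outside, and at the edge of *PECAM1* (2 UMIs inside, 1 outside) *ESM1* was at 2055 and 2872 CPM inside and 2370 and 2418 outside, so that no 1 order held.

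The label was then checked against genes the rule did not use, though genes that vary with the gate genes can follow the choice. Shares of cells with at least 1 UMI are given after each cell was thinned to 5000 UMIs, which 961 and 821 members, 94 and 75 venous ECs and 765 and 985 cardiomyocytes reached. *ESM1* (endocan, a secreted proteoglycan) was found in 90.6% and 92.9% of members, in 0% and 4.00% of venous ECs and in 4.31% and 1.42% of cardiomyocytes. Without thinning the shares were 94.7% and 96.5%, 5.15% and 5.13%, and 9.11% and 4.69%. The 0 of 94 thinned venous ECs of organoid 32.7 allows a share of up to 3.19% with an *ESM1* UMI at 5000 UMIs, a limit on detection at this depth and not on cells that express the gene. *EFNB2* (ephrin-B2, the arterial ligand of EPHB4) was found in 88.0% and 86.1% of members, against 25.5% and 26.7% of venous ECs and 6.67% and 5.38% of cardiomyocytes. *GJA4* (connexin 37) was found in 80.0% and 78.2%, against 42.6% and 33.3% and against 1.44% and 1.73%. *HEY1*, a Notch target also known from atrial cardiomyocytes, was found in 72.5% and 64.3% of members and in 23.1% and 22.3% of cardiomyocytes. Members stood above the cardiomyocyte background for each of these genes. The venous share of *ESM1* was below that background in organoid 32.7 and above it in organoid 33.10.

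**Figure D1:**
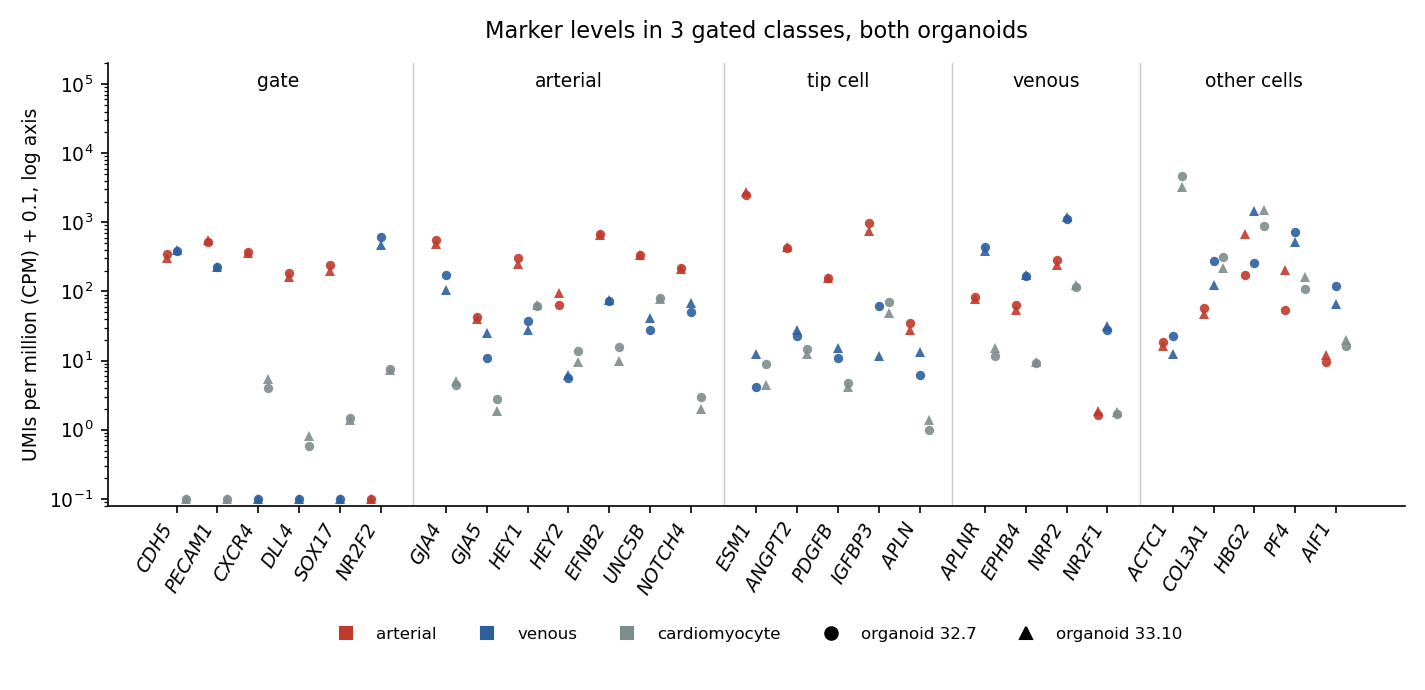
Levels of gate genes, arterial, tip cell and venous genes and genes of other cells in members, venous ECs and cardiomyocytes, as CPM plus 0.1 on a log axis, with a circle for organoid 32.7 and a triangle for organoid 33.10. *ESM1* lies at 2481 and 2733 CPM in members and at 4.09 and 12.4 in venous ECs, *EFNB2* at 688 and 654 against 72.9 and 75.9, and *NRP2* runs the other way at 290 and 243 against 1099 and 1192.

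Against all barcodes, the genes with the highest ratio in both organoids were led by *ESM1* at 2481 and 2733 CPM against 450 and 367. The protease gene *ADAMTS5*, the gate gene *CXCR4*, *FGF12* and *CHRM3* followed, and *EFNB2*, *NOX4*, *DEPTOR* and *FLT1* were among the next. *FLT1* (VEGF receptor 1, which binds VEGF with little signalling) was at 2747 and 2878 CPM against 617 and 529. Some genes of the arterial list were nearly missing. *BMX* was at 0.311 and 0.237 CPM, *FBLN5* (fibulin 5, of elastic fibres) at 0.373 and 0.237 and *DKK2* at 2.49 and 9.24, and these 3 of the 15 arterial genes were too low to be tested. Markers of other cells were low. The 10 cardiomyocyte genes summed to 160 and 213 CPM, the 9 mesenchymal and epicardial genes to 153 and 117, the 6 myeloid genes to 21.5 and 18.96 and the 5 endoderm genes to 20.6 and 1.90. Erythroid genes summed to 395 and 1749 CPM. Globin RNA was also found in cardiomyocytes, where *HBE1* had a UMI in 20.4% and 31.4% of thinned cells against 17.4% and 32.3% of members. The source of the globin RNA in members was not tested. The 18 genes of S phase and mitosis summed to 220 and 239 CPM in members, and to 2289 and 2521 CPM in the cycling arterial ECs.

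Members were compared with venous ECs, a class named only for its *NR2F2*. The gates of these classes ask for opposite levels of *NR2F2* and of *CXCR4*, *DLL4* and *SOX17*. For genes that vary with these, the gates themselves favour the matching direction, so arterial and venous list counts are no independent check of the label. Members had higher levels of *ESM1*, *HEY1*, *HEY2*, *EFNB2* and *GJA1* and of most tip cell genes tested, and lower levels of *TEK*, *NRP2*, *APLNR*, *GATA4* and *FN1*. Of 11976 genes tested, 2563 passed (21.4%), with 1054 higher (8.8%) and 1509 lower (12.6%) in members, and the median log2 fold change over all genes tested was -0.04. Without the barcodes of the highest Scrublet scores 1620 were higher and 1692 lower of 15111 tested, but there the cycling and *RUNX1*-positive classes had too few cells and the fit held only the arterial and venous sums, so that these counts, like the others against venous ECs without those barcodes, differ from the first in more than the barcodes. Each list count below stands against these shares. The class called venous also carried genes known from other endothelia, with *STAB2* and *GPR182*, of sinusoidal and lymphatic vessels, and most endocardial genes tested higher in it than in members.

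Of the 12 arterial genes tested 10 were higher in members and 0 lower, with a median log2 fold change of 2.00. *ESM1*, on GRCh38 chromosome 5 from 54977867 to 55022671, measured 2481 and 2733 CPM in members and 4.09 and 12.4 CPM in venous ECs, a log2 fold change of 8.35 ± 0.51 (adjusted p = 8.8e-07). The gap between the classes was far wider than that between the organoids, and without overlap. *HEY1* was at 305 and 248 CPM against 36.8 and 27.4, higher by 3.06 ± 0.26 on the log2 scale. *HEY2* was at 63.8 and 96.0 CPM against 5.45 and 6.18 (3.75 ± 0.42). *EFNB2* was at 688 and 654 CPM against 72.9 and 75.9 (3.14 ± 0.16, adjusted p = 2.5e-07). In none of these did an organoid's venous value reach a member value. *UNC5B*, a netrin receptor of arteries and tip cells, was at 336 and 341 CPM against 28.0 and 41.5 (3.27 ± 0.20). *IGFBP3*, which binds insulin-like growth factors, was at 966 and 760 CPM against 62.0 and 11.5 (4.46 ± 0.49), with the venous organoids far apart. *GJA4* was at 564 and 494 CPM against 174 and 106 (1.87 ± 0.30, adjusted p = 0.00101), and *GJA5* (connexin 40) at 42.6 and 39.6 CPM against 10.9 and 24.7 (1.22 ± 0.32, adjusted p = 0.0178). Both changes were smaller than those of *HEY1*, *HEY2* and *EFNB2*. *JAG1* and *SEMA3G* did not pass the test, and *JAG1*, a Notch ligand, was at 49.2 and 41.9 CPM against 19.8 and 30.9 (0.84 ± 0.31, adjusted p = 0.0809, and 0.0407 with the organoid as a block).

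**Figure D2:**
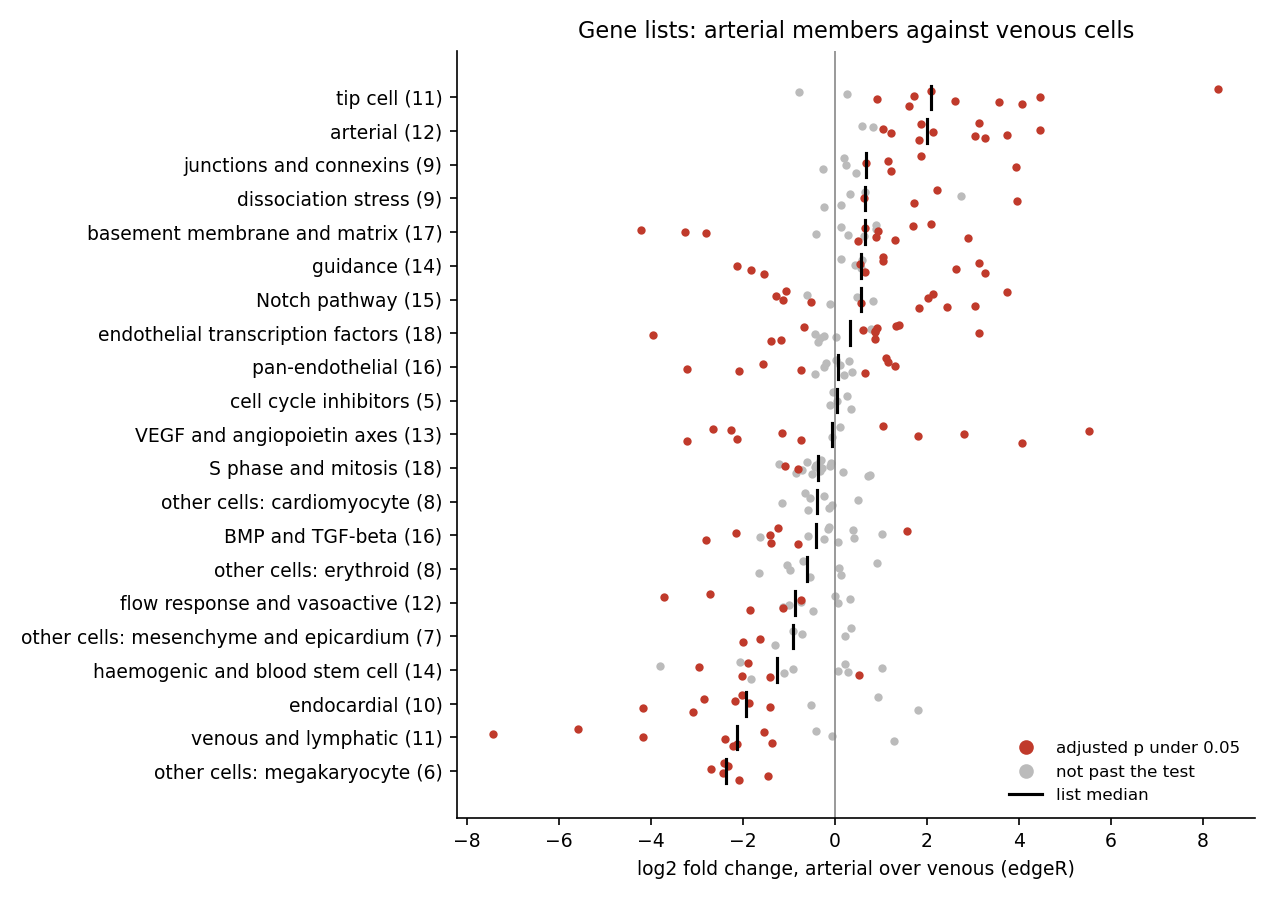
Log2 fold changes of members against venous ECs for the lists with more than 3 genes tested (number in brackets), 1 point per gene, red where the adjusted p was under 0.05 and grey where not, with each list's median as a black bar. The medians are 2.00 for the arterial list, 2.08 for the tip cell list, -2.14 for the venous and lymphatic list and -1.94 for the endocardial list.

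In the Notch pathway 7 of 15 genes tested were higher in members and 4 lower, with a median of 0.56. Among receptors, *NOTCH4* was at 220 and 208 CPM against 51.1 and 68.0 in venous ECs (1.83 ± 0.20). *NOTCH1* was at 131 and 132 CPM against 89.3 and 83.8 (0.56 ± 0.16, adjusted p = 0.0297, and 0.0565 with DESeq2), a smaller gap but without overlap. *NOTCH3*, the receptor of mural cells, was low in both classes and lower in members, at 5.03 and 6.95 CPM against 13.0 and 12.4 (adjusted p = 0.0491, and 0.205 with DESeq2). Of the ligands, *JAG2* was at 78.2 and 60.4 CPM against 21.8 and 7.94 (2.12 ± 0.33). Targets did not move together. *HES4* was at 79.5 and 106 CPM against 14.999 and 18.5 (2.45 ± 0.23) and *NRARP*, which limits Notch signalling, at 67.9 and 46.5 against 17.0 and 9.71 (2.03 ± 0.32). *HES1*, by contrast, was lower in members, at 51.5 and 49.2 CPM against 110 and 94.4 (-1.06 ± 0.16, adjusted p = 0.000764). *RBPJ*, the DNA-binding partner of the receptor's intracellular part, was slightly lower, at 111 and 106 CPM against 156 and 146 (-0.52 ± 0.15, adjusted p = 0.0279, and 0.0517 with DESeq2).

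The promoters of these targets are shown because genes of 1 family moved in opposite directions. The 7 letters GTGGGAA, the core that RBPJ binds, or TTCCCAC on the other strand, were searched in RefSeq windows of 300 bases (250 before to 50 after the start, GRCh38.p14). Of 35116 windows 6.25% held a match. Of the 18 Notch pathway genes 15 had a window (*HEY1* had none), and 6 held a match (*HES1*, *HES4*, *HES5*, *HEY2*, *HEYL* and *RBPJ*). These are counts of genes, some with more than 1 window, so they are not on the same measure as the 6.25% of windows. *RBPJ* held its matches in only 1 of its windows. The windows are printed 5' to 3' on the strand of the gene with matches in capitals. *HES4* lies at chr1:1000048-1000347 on the minus strand, *HEY2* at chr6:125749382-125749681 and *HES1* at chr3:194135898-194136197, both on the plus strand. *HEY2* holds 2 matches, 1 on each strand.
HES4: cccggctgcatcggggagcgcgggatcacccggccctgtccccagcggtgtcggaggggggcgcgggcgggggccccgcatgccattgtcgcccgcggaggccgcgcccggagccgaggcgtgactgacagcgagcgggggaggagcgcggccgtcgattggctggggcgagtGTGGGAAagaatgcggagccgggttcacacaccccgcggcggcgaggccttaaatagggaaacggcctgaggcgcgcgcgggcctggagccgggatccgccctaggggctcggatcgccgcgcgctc
HEY2: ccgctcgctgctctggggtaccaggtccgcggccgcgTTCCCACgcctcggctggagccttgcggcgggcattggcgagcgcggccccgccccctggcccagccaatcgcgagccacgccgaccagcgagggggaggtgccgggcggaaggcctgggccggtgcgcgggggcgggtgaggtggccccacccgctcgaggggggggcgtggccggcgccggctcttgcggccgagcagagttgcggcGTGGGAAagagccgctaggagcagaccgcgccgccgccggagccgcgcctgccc
HES1: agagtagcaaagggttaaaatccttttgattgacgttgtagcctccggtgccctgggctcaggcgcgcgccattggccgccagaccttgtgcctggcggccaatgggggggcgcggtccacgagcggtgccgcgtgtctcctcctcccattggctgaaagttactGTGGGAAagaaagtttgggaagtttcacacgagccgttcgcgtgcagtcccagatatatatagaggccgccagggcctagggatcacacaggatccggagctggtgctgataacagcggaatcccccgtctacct
Of the 6 genes with a window that were higher in members, 2 held a match (*HES4* and *HEY2*), and of the 7 that were lower or did not pass, 2 did (*HES1* and *RBPJ*). *HES1*, which was lower in members, thus carried the same 7 letters as *HES4*, which was higher. A match is a run of letters and no measured binding site.

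Of the VEGF and angiopoietin genes 5 of 13 were higher in members and 6 lower (median -0.07), and the receptors divided. *FLT1* was at 2747 and 2878 CPM in members and 610 and 976 in venous ECs (1.80 ± 0.21). *NRP1*, the co-receptor of arteries, was at 1015 and 1151 CPM against 432 and 591 (1.05 ± 0.17). *KDR* (VEGF receptor 2) was lower in members, at 922 and 942 CPM against 1518 and 1533 (-0.74 ± 0.14, adjusted p = 0.00296). The co-receptor of veins and lymphatics, *NRP2*, was at 290 and 243 CPM against 1099 and 1192 (-2.14 ± 0.16). *TEK*, the angiopoietin receptor, was at 51.7 and 51.6 CPM against 440 and 500 (-3.22 ± 0.21, adjusted p = 1.5e-06). Its ligands ran opposite ways. *ANGPT2*, which blocks TEK in many settings, was at 419 and 434 CPM against 22.5 and 27.4 (4.07 ± 0.29), whereas *ANGPT1*, which activates it, was at 1.93 and 3.87 CPM against 18.4 and 16.8 (-2.66 ± 0.39). *ANGPT1* was at 144 and 113 CPM in *RUNX1*-positive arterial ECs, where megakaryocyte genes were high. The part of megakaryocyte RNA in its venous level was not tested. *VEGFC* was at 148 and 179 CPM against 4.77 and 1.76. The venous sums held 9 *VEGFC* UMIs in all, and the ratio of the pooled levels was 46.7 (95% counting interval 24.6 to 102). *VEGFA* was lower in members, at 8.70 and 9.01 CPM against 45.0 and 37.9 (-2.27 ± 0.22).

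Of the 11 tip cell genes tested 9 were higher in members and 0 lower, with a median of 2.08. Against cycling arterial ECs 2 of the 11 were higher and 0 lower (5 and 0 with the organoid as a block). Against *RUNX1*-positive arterial ECs 1 was higher and 1 lower (2 and 1 with the block). The wide gap in this list was thus one to venous ECs. *PDGFB*, which recruits pericytes, was at 156 and 155 CPM against 10.9 and 15.002 in venous ECs (3.57 ± 0.24). *APLN* (apelin) was at 34.4 and 28.0 CPM against 6.14 and 13.2 (1.71 ± 0.35), and its receptor *APLNR* at 83.4 and 77.0 against 442 and 385 (-2.40 on the log2 scale). Ligand and receptor were thus higher in opposite classes, with no overlap for either. *INSR*, the insulin receptor, was at 271 and 282 CPM against 42.3 and 45.9 (2.62 ± 0.19). *NID2* (nidogen 2) was at 115 and 103 CPM against 21.8 and 29.1 (2.08 ± 0.20). Guidance genes were mixed, with 7 of 14 higher and 3 lower. *PLXNA2*, a semaphorin co-receptor, was at 298 and 332 CPM against 50.5 and 48.5 (2.63), while *EPHB4*, the venous receptor of ephrin-B2, was at 64.0 and 54.2 against 167 and 171 (-1.55).

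In the junction list 5 of 9 genes tested were higher and 0 lower (median 0.68). *GJA1* (connexin 43) had the widest gap of these, at 593 and 541 CPM against 42.3 and 29.1 (3.94 ± 0.24, adjusted p = 9.2e-07). Of 17 genes of the basement membrane and matrix 8 were higher and 3 lower (median 0.64). *LAMA4*, the laminin chain of vessel walls, was at 174 and 157 CPM against 23.9 and 19.4 (2.89), and *COL15A1* at 153 and 166 against 47.7 and 47.7 (1.71 ± 0.19). *FN1* (fibronectin) ran the other way, at 63.3 and 57.6 CPM against 1208 and 990 (-4.22 ± 0.22).

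Of the 11 venous and lymphatic genes 8 were lower and 0 higher (median -2.14). *NR2F1*, the relative of the gate gene *NR2F2*, was at 1.55 and 1.74 CPM against 27.3 and 31.8 (-4.17). *FLRT2*, a guidance receptor ligand, was at 13.4 and 13.1 CPM against 657 and 597 (-5.60 ± 0.25, adjusted p = 1.6e-07). The scavenger receptor *STAB2* was at 0.0621 and 0.316 CPM against 46.4 and 21.2. The lymphatic genes *FLT4*, *LYVE1* and *PROX1* did not pass the test. *LYVE1* was at 30.8 and 16.8 CPM against 11.6 and 7.06 (1.29 ± 0.46, adjusted p = 0.0726, and 0.00372 with the organoid as a block). Of the 10 endocardial genes 7 were lower and 0 higher (median -1.94), and without the barcodes of the highest Scrublet scores 7 were lower and 2 higher. *GATA4* was at 23.7 and 24.3 CPM against 410 and 438 (-4.17 ± 0.16, adjusted p = 1.0e-07), and was detected in 8.12% and 8.40% of thinned members against 60.6% and 56.0% of venous ECs. *HAND2* was at 10.1 and 9.56 CPM against 40.9 and 45.9 (-2.17 ± 0.23). *NPR3*, the natriuretic peptide receptor of the endocardium, did not follow these, at 217 and 205 CPM against 140 and 72.4 (0.94, adjusted p = 0.0613, and 0.00714 with the organoid as a block).

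In the BMP and TGF-beta list 6 of 16 genes were lower in members and 1 higher (median -0.42). The inhibitory SMADs were among the lower ones, with *SMAD6* at 66.9 and 97.6 CPM against 320 and 394 (-2.15 ± 0.26) and *SMAD7* at 9.07 and 11.9 against 69.5 and 72.4 (-2.80 ± 0.20). *ID1*, a BMP target, was lower as well, at 1523 and 1373 CPM against 2825 and 2128. *TGFBR2*, a TGF-beta receptor, was the higher one, at 643 and 684 CPM against 222 and 214 (1.57 ± 0.21). Of 12 genes of flow response and vasoactive function 5 were lower and 0 higher (median -0.86), and 8 were lower with the organoid as a block. *EDN1* (endothelin 1) was at 5.03 and 11.3 CPM against 118 and 89.1 (-3.72 ± 0.59, adjusted p = 0.000932), a call lost with DESeq2 (adjusted p = 0.0969). *NOS3*, the endothelial nitric oxide synthase, was at 84.0 and 70.0 CPM against 72.9 and 77.7, and the classes overlapped. *KLF2*, a factor induced by flow, was at 42.3 and 41.8 CPM against 81.8 and 53.8 (-0.74 ± 0.26, adjusted p = 0.0653, and 0.0140 with the organoid as a block).

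Pan-endothelial genes gave no common direction, with 4 of 16 higher and 4 lower (median 0.07). *CD34* was at 199 and 226 CPM against 94.1 and 73.2 (1.30), *CLDN5* at 85.6 and 68.7 against 76.4 and 52.9, which did not pass. Among 18 endothelial transcription factors 8 were higher and 4 lower (median 0.32). *SOX18* was at 644 and 573 CPM against 280 and 191 (1.33 ± 0.22) and *ETS1* at 591 and 647 against 318 and 343 (0.87 ± 0.15). *FOXC2*, a factor of lymphatic and valve endothelium, was at 2.05 and 1.74 CPM against 34.1 and 23.8 (-3.95 ± 0.39). Of the 14 haemogenic and blood stem cell genes tested 1 was higher and 4 were lower (median -1.25). *TAL1* was at 14.98 and 18.8 CPM against 41.6 and 45.9, and *ITGA2B* (CD41, of megakaryocytes and early blood cells) at 6.59 and 14.1 against 43.6 and 37.1, a call lost without the barcodes of the highest Scrublet scores (adjusted p = 0.278). *MECOM*, a factor of arterial and haemogenic endothelium, was high in both classes, at 987 and 1021 CPM against 767 and 841 (0.29, adjusted p = 0.202).

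Beside these stood the genes of other cells. All 6 megakaryocyte genes were lower in members (median -2.38), and they summed to 122 and 388 CPM in members and to 1461 and 1081 CPM in venous ECs. The most abundant was *PF4*, at 53.8 and 201 CPM against 729 and 515 (-2.33 ± 0.57, adjusted p = 0.0130, and 0.142 with DESeq2). Without the barcodes of the highest Scrublet scores 0 of the 6 passed (*PF4* -0.73, adjusted p = 0.204) and the median was -0.40, and the haemogenic list then had 2 of 9 higher and 3 lower (median 0.25). Of the other lists, 0 of 8 cardiomyocyte genes, 0 of 8 erythroid genes and 0 of 1 endoderm gene passed in either direction, and 2 of 7 mesenchymal genes and 1 of 3 myeloid genes were lower in members. The part of cardiomyocyte, erythroid, mesenchymal and myeloid RNA in the lower genes was not tested. Of 18 genes of S phase and mitosis 2 were lower (4 with the organoid as a block), and of 5 cell cycle inhibitors 0 passed. Of 9 genes induced by cell dissociation 4 were higher in members (*FOS*, *FOSB*, *JUN* and *JUNB*, median 0.65). The 9 genes summed to 271 and 238 CPM against 148 and 123, and *JUNB* was at 77.6 and 64.8 CPM against 29.997 and 10.6. The median mitochondrial share was higher in members too, at 4.02% and 4.17% against 2.80% and 2.60%. The part of RNA quality in the comparison was not tested.

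The widest changes in each direction, some of them in genes of the lists, were read on genes with at least 20 CPM in both organoids of the higher class. The higher ones were, in order of the fitted change, *UNC5B-AS1*, *ESM1*, *CHST1*, *KCNQ3*, *ARHGEF28*, *DEPTOR*, *CLDN1*, *PRND*, *VEGFC* and *ACKR3*. *UNC5B-AS1* had no UMI in venous ECs and was at 34.5 and 36.1 CPM in members, at least 30.5-fold higher against a floor of 3 UMIs over the venous class. It runs antisense to *UNC5B*, and whether the counting used strand is not given in the sources used here, so its reads and those of *UNC5B* may not be separate. *CHST1*, a sulphotransferase, had 1 venous UMI (ratio 100, 95% counting interval 17.9 to 3954). *ACKR3*, a scavenging receptor for CXCL12, was at 97.1 and 64.3 CPM against 2.05 and 1.76 (5.34 on the log2 scale), whereas *CXCL12* itself was low in both classes. *DEPTOR*, an inhibitor of mTOR, was at 128 and 152 CPM against 2.05 and 2.65 (5.87). The genes furthest on the other side were *MS4A4A*, *GPR182*, *ACP5*, *STAB2*, *SOST*, *CDH12*, *NR2F2-AS1*, *CD200R1*, *SH3RF2* and *S100Z*. *SOST* (sclerostin, a secreted Wnt inhibitor) was at 3.11 and 2.37 CPM in members and 491 and 416 in venous ECs (-7.38). *GPR182*, a receptor of lymphatic and sinusoidal ECs, was at 0.124 and 0.158 CPM against 34.8 and 40.6. *NR2F2-AS1*, at 1.37 and 1.90 CPM against 165 and 157, overlaps 1 end of the gate gene *NR2F2* on the opposite strand. The same limit on strand holds for *NR2F2-AS1*, so its reads and those of the gate gene may not be separate.

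The members varied among themselves in *ESM1*, which the rule did not use. After thinning, the median member had 10 *ESM1* UMIs in both organoids, and the 10th to 90th percentiles ran from 1 to 29 and from 1 to 33, with a maximum of 68 and 84. At least 2 UMIs were found in 84.8% and 87.7% of members and none in 9.37% and 7.06%. The spread among members was thus wide in both organoids, and their medians were equal.

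**Figure D3:**
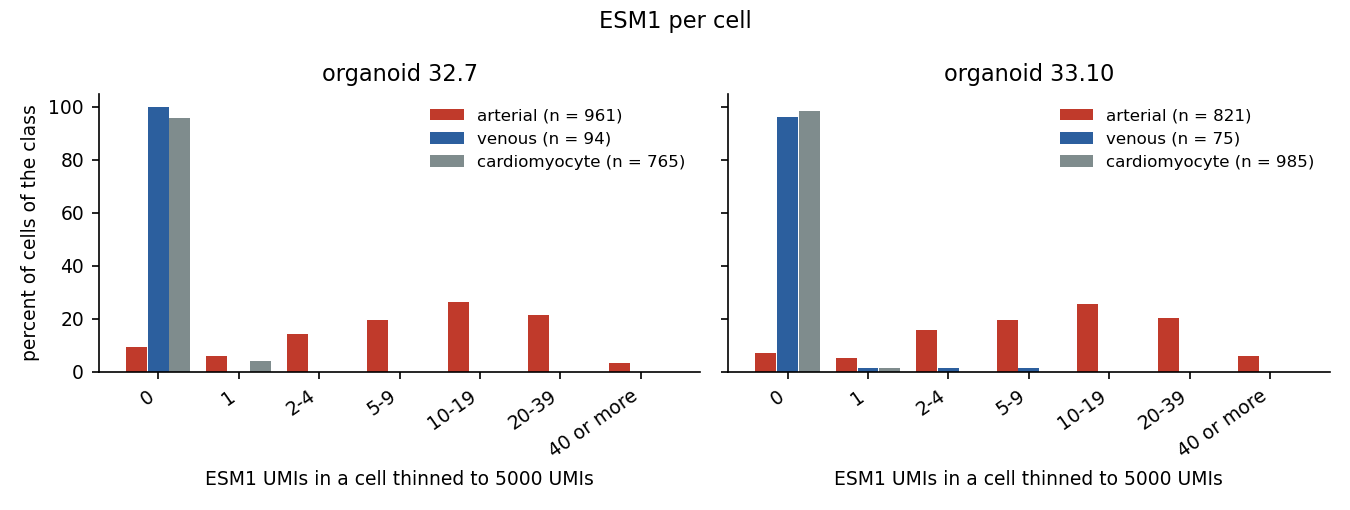
Share of members, venous ECs and cardiomyocytes (percent of thinned cells of the class) by *ESM1* UMIs per cell in bins of unequal width, 1 panel per organoid. Of the members 9.37% and 7.06% lie at 0, while nearly all venous ECs and cardiomyocytes do.

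*ESM1*-positive members (at least 2 thinned UMIs, 815 and 720 cells) were compared with *ESM1*-zero members (90 and 58 cells), to ask which genes go with *ESM1* within the arterial class. The groups had like depth, with medians of 15099 and 13645 UMIs against 15177.5 and 15059.5. Barcodes of the highest Scrublet scores were 4.29% and 6.81% of the first and 8.89% and 3.45% of the second. An arterial sum of at least 5 left 747 and 630 cells of the first and 66 and 41 of the second. A larger part of the *ESM1*-zero members thus lay near the edge of the rule. The part of this in the split was not tested. Of 14680 genes 28 passed (0.191%), 13 higher (0.0886%) and 15 lower (0.102%) in *ESM1*-positive members, and 1335 had an unadjusted p under 0.05. With the organoid as a block 155 were higher and 125 lower. The higher genes included *ANGPT2*, *PDGFB* and *LAMA4*, and the lower ones *GJA5* and *GATA4*.

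*ANGPT2* was at 474 and 474 CPM in *ESM1*-positive members and 116 and 167 in *ESM1*-zero members (1.81 ± 0.18, adjusted p = 0.0168). *PDGFB* was at 170 and 166 CPM against 68.9 and 71.7 (1.30 ± 0.14, adjusted p = 0.0173) and *PDGFA* at 114 and 115 against 45.9 and 43.2 (1.39). *ACKR3* was at 108 and 67.2 CPM against 20.2 and 20.0, with an adjusted p of 0.0462. *LAMA4* was at 192 and 171 CPM against 71.7 and 60.1 (1.49), and *FGF12* at 297 and 291 against 92.6 and 133 (1.45). None of these overlapped between the groups, but all were picked among genes past the test. Among the lower genes, *TFPI2*, a protease inhibitor of the matrix, was at 53.3 and 52.9 CPM against 213 and 282 (-2.17 ± 0.16, adjusted p = 0.00732), a call lost with an arterial sum of at least 5 (-1.16, adjusted p = 0.412). *THSD7A*, which acts on EC migration, was at 35.3 and 38.0 CPM against 166 and 116 (-1.92), and *LPL* (lipoprotein lipase) at 24.5 and 24.0 against 73.1 and 86.5 (-1.66). *GJA5* was at 37.1 and 35.1 CPM against 84.2 and 78.0 (-1.13 ± 0.15, adjusted p = 0.0302). *GATA4* was at 21.4 and 21.9 CPM against 53.6 and 51.7 (-1.24, adjusted p = 0.0302). *GJA5*, which was higher in members than in venous ECs, was therefore lower in the *ESM1*-positive members than in the *ESM1*-zero ones. The other lower genes named here did not share this reversal. *GATA4*, *TFPI2* and *THSD7A* were also lower in members than in venous ECs (-4.17, -2.87 and -1.98), where *LPL* did not pass (-0.70, adjusted p = 0.0986). The higher genes named here were all higher in members than in venous ECs as well.

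**Figure D4:**
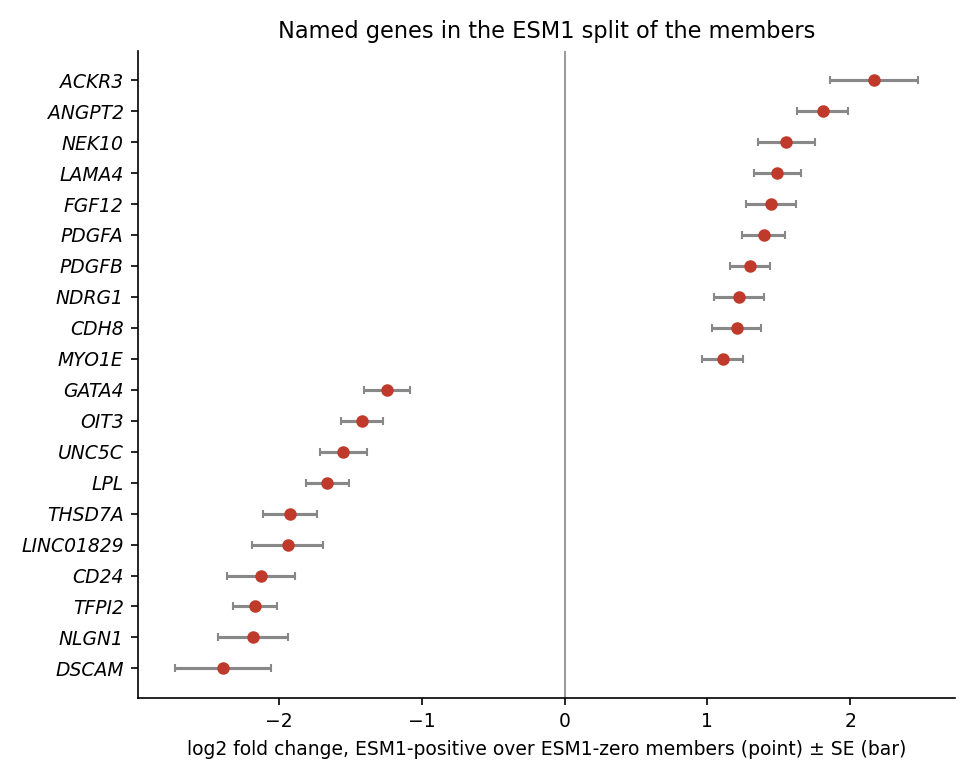
Log2 fold changes of *ESM1*-positive over *ESM1*-zero members (points) with their standard error (bars) for the 10 genes of each direction with the widest change past the test. *ACKR3* and *ANGPT2* lead the higher genes at 2.17 and 1.81, and *TFPI2* is among the lower ones at -2.17.

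By list, 2 of 10 tip cell genes were higher and 0 lower (median 0.69, and 6 higher with the organoid as a block). Of the 13 arterial genes tested 0 were higher and 1 was lower (median 0.26, and 2 higher and 2 lower with the block), and of 16 Notch genes 0 passed (median 0.06, and 1 higher with the block). *EFNB2* (0.33, adjusted p = 0.544), *GJA4* (-0.31, adjusted p = 0.769) and *KDR* (0.25, adjusted p = 0.640) did not pass. Some tip cell genes passed only with the organoid as a block. *APLN* had a log2 fold change of 1.37 (adjusted p = 0.0890, and 0.00889 with the block), and *IGFBP3* was at 1038 and 796 CPM against 374 and 455 (1.20, adjusted p = 0.0595, and 0.00129 with the block). Of 9 mesenchymal genes 0 passed (2 lower with the block, median -0.86), and they summed to 136 and 111 CPM in *ESM1*-positive and to 280 and 174 CPM in *ESM1*-zero members. Of 7 erythroid genes 0 passed (1 higher with the block, median 1.24), and the list summed to 330 and 1842 CPM in *ESM1*-positive and to 500 and 538 CPM in *ESM1*-zero members, in opposite order in the 2 organoids. The part of such RNA in the split was not tested.

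The members were compared with cycling arterial ECs, which differ by the gate genes *MKI67* and *TOP2A*. Of 11976 genes 790 passed (6.6%), 181 higher (1.51%) and 609 lower (5.09%) in the non-cycling members. With the organoid as a block 446 were higher and 842 lower. All 18 genes of S phase and mitosis were lower (median -3.52, against 0.03 over all genes tested), the direction that the gate itself favours. *UBE2C*, of the anaphase machinery, was at 2.73 and 3.56 CPM against 158 and 139, and *HMGB2* at 18.5 and 23.1 against 362 and 354 (-4.11). Of the arterial genes 4 of 12 were higher in the non-cycling members and 0 lower (median 0.80, and 8 higher with the block). *GJA4* was at 564 and 494 CPM against 185 and 78.9 in the cycling cells (1.92 ± 0.32, adjusted p = 0.00273), and *EFNB2* at 688 and 654 against 328 and 373 (0.95 ± 0.15, adjusted p = 0.00161). *CD34*, a sialomucin, was at 199 and 226 CPM against 63.6 and 71.7 (1.67 ± 0.19), and *VEGFC* at 148 and 179 against 54.7 and 64.5 (1.48). *ESM1* was at 2481 and 2733 CPM against 1447 and 772 (1.22 ± 0.34, adjusted p = 0.0532, and 0.00448 with the block). Its values did not overlap between the classes, but the cycling organoids were far apart, with 34 and 20 cells behind them. Sums of genes of other cells differed as well, though 0 passed in the mesenchymal list (3 of 7 lower in members with the block) and 0 in the erythroid list (1 of 8 lower with the block). The mesenchymal genes summed to 559 and 275 CPM in the cycling class against 153 and 117 in members (median -1.84). The erythroid genes summed to 7488 and 239 CPM against 395 and 1749 (median -1.86). Their order was thus opposite in the 2 organoids, with the cycling organoids far apart. Barcodes of the highest Scrublet scores were 23.5% and 10.0% of the cycling class. The part of these cells in the differences was not tested.

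Members were last compared with *RUNX1*-positive arterial ECs, the class in which haemogenic cells would be found. Of 11976 genes 938 passed (7.83%), 153 higher (1.28%) and 785 lower (6.55%) in members, and with the organoid as a block 453 were higher and 1048 lower. With up to 1 UMI of the arterial 3 allowed in venous ECs, which share the fit, 263 were higher and 797 lower of 12513 tested. Of the 14 haemogenic genes 9 were lower in members and 0 higher (median -3.14), among them *ITGA2B*, at 6.59 and 14.1 CPM against 240 and 233 (-4.61). All 6 megakaryocyte genes, 5 of 8 erythroid genes (8 with the block) and all 3 myeloid genes tested were lower as well. Of 18 genes of S phase and mitosis 7 were lower (8 with the block, median -1.34), and they summed to 469 and 364 CPM in the *RUNX1*-positive class. Of 8 cardiomyocyte genes 1, *MYL4*, was lower, and of 7 mesenchymal genes 0 passed (4 lower with the block, median -1.52), with sums of 673 and 172 CPM in the *RUNX1*-positive class. *PF4* was at 53.8 and 201 CPM against 2979 and 2542 (-4.53, adjusted p = 0.000751). The erythroid genes summed to 11214 and 14248 CPM in the *RUNX1*-positive class, the megakaryocyte genes to 5022 and 4296 and the myeloid genes to 341 and 307. With 62.5% and 83.3% of its barcodes among the highest Scrublet scores, the class kept 12 and 10 cells without them and could not be fitted, so how much of these differences comes from doublets was not tested. Of 16 pan-endothelial genes 5 were higher in members and 1, *ICAM2*, was lower (10 and 1 with the block). *KDR* was at 922 and 942 CPM against 607 and 581 (0.57 ± 0.14, adjusted p = 0.0328), and *ENG*, a TGF-beta co-receptor, at 322 and 291 against 188 and 165 (0.72, adjusted p = 0.0111). Of the 12 arterial genes 2 were higher (7 with the block) and 0 lower. *EFNB2* was at 688 and 654 CPM against 427 and 422 (0.58, adjusted p = 0.0276). *ESM1*, at 2481 and 2733 CPM against 2021 and 1163, did not pass (adjusted p = 0.327). In the Notch list 0 of 15 genes passed (6 higher with the block).

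Finally the members of both organoids were set side by side, as values with no test, since each is 1 library. Of 7499 genes at 20 CPM or more on average, 98.6% were within 1.5-fold of each other, and Spearman's rho across these genes was 0.977, a description across genes and not replicates. The 44 genes over 2-fold apart were 43 higher in organoid 33.10 and 1, *TAC1*, higher in organoid 32.7. The genes named here were chosen after their values were seen. *MX1*, an antiviral GTPase induced by interferon, was at 9.45 CPM in members of organoid 32.7 and 187 in those of organoid 33.10, *IFI44L* at 6.09 and 84.9, *IFI27* at 15.4 and 157, *ISG15*, a ubiquitin-like modifier, at 243 and 1360, and *IFI6* at 218 and 1407. The same order held in other cells. *MX1* was at 213 and 521 CPM in venous ECs and at 12.4 and 52.7 in cardiomyocytes, and *ISG15* at 975 and 2036 and at 283 and 939. Of the 43 genes 40 were higher in organoid 33.10 in venous ECs as well (14 over 2-fold), 40 in cardiomyocytes (15 over 2-fold) and 41 over all barcodes (17 over 2-fold). *MX1* and *ISG15* were lower in members than in venous ECs of the same organoid, in both organoids. The globin *HBE1* was also apart, at 62.3 and 317 CPM, as was the metallothionein *MT2A*, at 5.10 and 37.8. *TAC1*, the precursor of substance P, was at 68.9 and 9.64 CPM in members but ran the other way in venous ECs (31.4 and 44.1). Each organoid is 1 library, so differences between organoids and between library preparations cannot be told apart.

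**Figure D5:**
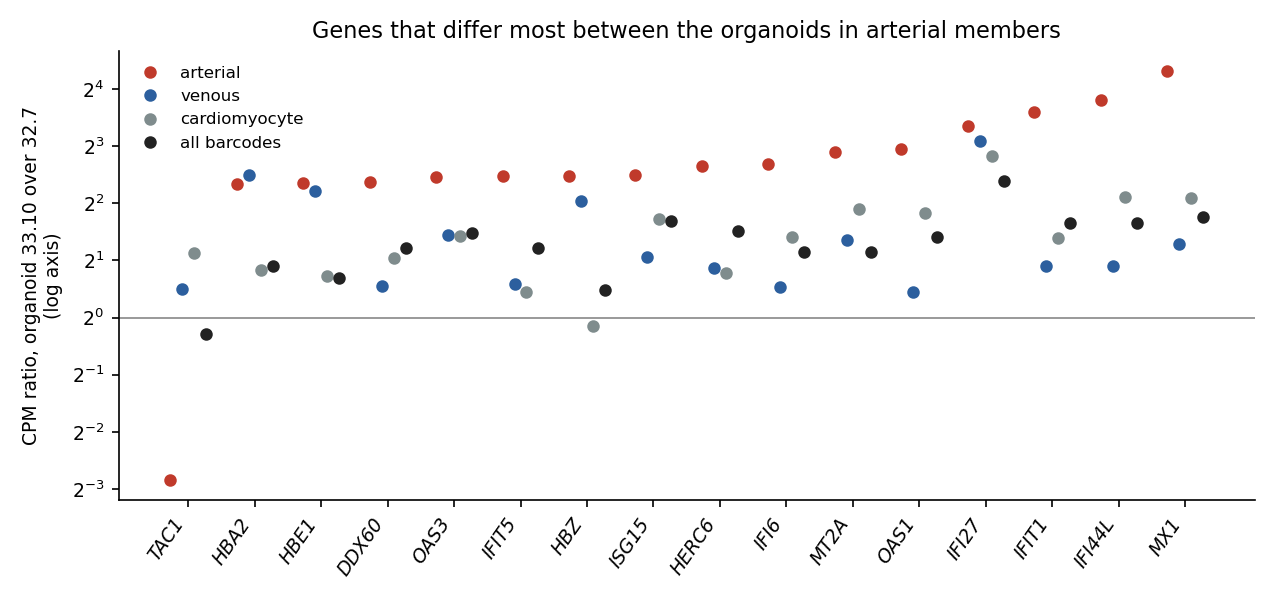
Ratio of the level in organoid 33.10 to that in organoid 32.7 (log axis, CPM over CPM) for *TAC1* and the 15 genes furthest apart the other way in members, with 1 point each for members, venous ECs, cardiomyocytes and all barcodes. The member points of these 15 genes lie above 1, from *HBA2* (11.2 and 56.3 CPM) to *MX1* (9.45 and 187 CPM), and *TAC1* (68.9 and 9.64 CPM) lies below it.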

How the data were processed

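Cell Ranger 7.0.0, run by the authors on GRCh38 with intronic reads included, gave the deposited counts. These are whole UMI counts per gene and barcode, without normalization, with free RNA not yet removed. The deposited feature and barcode files gave only names and no measured value, and 0 columns of other samples were set aside. From the counts, barcodes with 500 to 9000 genes and under 15% mitochondrial UMIs were gated on 11 genes and summed per class and organoid. In edgeR 4.0.16 (R 4.3.3), a quasi-likelihood fit with TMM scaling and edgeR's expression filter was made on 8 sums of 4 EC classes, and a separate one on 4 sums for the *ESM1* split. Fits were tested on simulated data. DESeq2 1.42.0, no filter, other gates, removal of Scrublet-marked barcodes (13.5% and 16.0% of each library) or of 10% ambient RNA, and the organoid as a block were alternatives. Scrublet's own threshold marked 0 and 3813 barcodes, so that a rank was used.

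All classes come from the same organoids, so that their sums are paired by organoid. The differences between organoids in members correlated across 7801 genes with those in venous (0.362), cycling (0.136) and *RUNX1*-positive arterial ECs (0.421), and those in *ESM1*-positive with *ESM1*-zero members (0.445). Named genes were those of the 24 gene lists, and per comparison the 10 genes past the test that changed most on either side, with at least 20 CPM in both organoids of the higher class. The members and lists were chosen with earlier results of these data known. Positions are from GENCODE 44 and promoters from RefSeq. Library totals were 191152562 and 233818881 UMIs, and classes of 20 to 97 cells give less precise sums than the members.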

Additional observations from a re-analysis of the deposited data

How the results depend on the processing

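The total of calls against venous ECs stayed within 1.5 times of 2563 under every alternative run. Without Scrublet-marked barcodes 1620 genes were higher in place of 1054, in a fit of 2 classes and 15111 genes in place of 4 classes and 11976 genes, so that the counts are not directly comparable. The 790 calls against cycling arterial ECs rose to 1299 without the expression filter and to 1288 with the organoid as a replicate block. The 938 calls against *RUNX1*-positive arterial ECs rose to 1650 and 1501 under the same changes. The 28 calls of the *ESM1* split became 143 with DESeq2, 448 without the filter, 280 with the replicate block, 115 without Scrublet-marked barcodes, 101 with 10% ambient RNA removed and 171 with *ESM1* classes on raw UMIs. The cause was not tested. Gating on thinned counts took 327 of 10589 and 224 of 13453 filtered barcodes with at least 5000 UMIs, a share of 2.38% as the mean over organoids, whereas the 5.42% is of all filtered barcodes, so that the shares have different denominators. Thinning leaves fewer UMIs to pass the gate. Leaving out 1 organoid gave shares of 4.52% and 6.32%. The counts have no such value, because 1 organoid leaves no residual degrees of freedom. With the block, 0 calls among listed and named genes were lost, and beside those given above it changed calls only by adding some. Among the genes named with values 1 direction reversed, that of *NOS3* against venous ECs, which did not pass the test under either setting (-0.0055 on the log2 scale with an arterial sum of at least 5, against 0.0033). Not run for lack of cells were the fits on thinned gates, those without Scrublet-marked barcodes for cycling and *RUNX1*-positive cells, and the arterial sum of at least 5 for cycling cells. The 20 to 97 cells of the smaller classes limit what can be detected there.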
